A study of Mus musculus with 8 samples.

Results

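The set described here is the p53 pathway and the intrinsic apoptosis machinery in the embryonic mouse cortex: 44 genes for p53, its regulators, its transcriptional targets and the BCL2 family with its downstream partners, out of 27179 genes counted. The genes were listed by name, and all 44 were found by matching symbols to the numeric gene identifiers of the count matrix. The data are unstranded RNA-seq counts from the cerebral cortex of 8 mouse embryos, each a library of its own. The 4 Taf8-deleted embryos had the genotype Taf8 -/lox, that is, a null allele and an allele flanked by loxP sites, and the 4 Taf8-intact embryos were Taf8 +/+. Taf8 codes for one of the TBP-associated factors, which together with TBP make up TFIID, the complex that binds core promoters. For the recombinase, the embryos' age and their strain, the sources used here give nothing. The animal numbers were 456.1, 472.1, 477.1 and 486.1 for the deleted embryos and 408.4, 408.5, 408.6 and 409.2 for the intact ones. The groups thus shared none of the numbers before the point, and genotype cannot be told apart from whatever that number stands for. Intact embryos 408.4, 408.5 and 408.6 shared that number, while the deleted embryos all differed in it. If a shared number means related embryos, the intact ones are not independent, whereas the tests treated all embryos as independent.

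The transcription factor p53 is held at a low level by the ubiquitin ligase MDM2 and its partner MDM4, mostly at the protein level. When it is stabilised, p53 activates genes that stop the cell cycle, repair DNA, or kill the cell, and it also activates Mdm2, which closes a feedback loop. Death runs through the mitochondrion: BH3-only proteins such as PUMA (Bbc3), NOXA (Pmaip1) and BIM (Bcl2l11) block survival proteins such as BCL2 and MCL1 and free BAX and BAK1 to open the outer membrane, after which cytochrome c, APAF1 and caspase-9 form the apoptosome. Programmed death of progenitors and young neurons is a normal part of cortical development and also a known response of the embryonic cortex to damage. The publication of this study describes p53-dependent death of neurons after loss of Taf8; neither cell death nor p53 protein was measured in these libraries.

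The 8 libraries held 39590959 to 44788200 counts. Taf8 mRNA was at 0.657, 0.318, 0.655 and 0.349 CPM (counts scaled to one common library size) in the deleted libraries, against 34.7, 32.6, 29.7 and 33.3 CPM in the intact libraries, so each library matched its label. Markers of the cortex were present in every library, with a summed level of 9 markers, among them Emx1, Pax6 and Tubb3, of 3955 to 4321 CPM in deleted and 5283 to 5691 CPM in intact libraries. Of those 9 markers 1 rose (Pax6), 6 fell, and Emx2 and Tubb3 were not called. All 6 markers of the ganglionic eminence and its interneurons fell, with sums of 486 to 508 CPM in deleted and 692 to 798 CPM in intact libraries. Other tissue varied between libraries: the sum of 6 meningeal fibroblast markers was 60.9, 116, 146 and 18.7 CPM in deleted replicates 1 to 4 and 15.9 to 36.9 CPM in the intact libraries, and that of 5 choroid plexus markers was 907 CPM in deleted replicate 1 and 293 CPM in intact replicate 4, against 14.2 to 153 CPM in the other 6. Of the 6 meningeal markers 4 rose and 2 were not called, and no choroid plexus marker was called. The 7 endothelial markers summed to 182 to 228 CPM in deleted and 157 to 166 CPM in intact libraries. All 7 rose, where 30.6% of all genes tested rose. The 8 microglial markers summed to 39.2 to 47.8 CPM in deleted and 40.2 to 46.7 CPM in intact libraries. Of these Csf1r and C1qb rose (log2 fold changes 0.33 and 0.52), Cx3cr1 fell (-0.30), and 5 were not called. The 5 erythroid markers in the matrix summed to 134 to 162 CPM in deleted and 91.9 to 133 CPM in intact libraries, and 2 of them rose. No marker of these lists that the matrix holds was at 0 in all libraries. In bulk tissue, fewer cells of a type and less RNA per cell cannot be told apart, and the part of these shifts in the results below was not tested beyond the values given beside them.

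Because Taf8 acts at core promoters, the promoters of the genes that carry the main results are shown first: the 100 bases before the RefSeq start site (GRCm38.p6), with matches of 4 searched motifs in capitals. Searched on both strands were the TATA box as TATAAA, the GC box as GGGCGG and the CCAAT box by its own letters, and also the p53 half-site, whose pattern is the same on both strands. Overlapping matches run together in capitals, as the last GC boxes of Bbc3 do. Where a gene has several starts, the first listed is shown, and both for Cdkn1a.
Cdkn1a, first start, chr17:29090879-29090978, plus strand: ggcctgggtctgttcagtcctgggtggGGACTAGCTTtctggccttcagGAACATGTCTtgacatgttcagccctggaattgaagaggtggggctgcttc
Cdkn1a, second start, chr17:29093669-29093768, plus strand: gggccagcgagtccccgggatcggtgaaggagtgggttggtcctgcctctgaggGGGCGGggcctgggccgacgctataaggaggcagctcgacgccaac
Trp53, chr11:69580259-69580358, plus strand: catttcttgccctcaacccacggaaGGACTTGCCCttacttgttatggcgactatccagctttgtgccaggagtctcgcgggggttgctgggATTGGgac
Btg2, chr1:134079156-134079255, minus strand: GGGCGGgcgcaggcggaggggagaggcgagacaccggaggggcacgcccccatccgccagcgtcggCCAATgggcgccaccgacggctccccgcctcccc
Sesn1, chr10:41810474-41810573, plus strand: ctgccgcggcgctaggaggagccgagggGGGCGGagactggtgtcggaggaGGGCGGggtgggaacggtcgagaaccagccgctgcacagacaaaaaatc
Bcl2l11, chr2:128125938-128126037, plus strand: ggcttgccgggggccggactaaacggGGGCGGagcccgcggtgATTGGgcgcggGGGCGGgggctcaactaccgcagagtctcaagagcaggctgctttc
Bid, chr6:120916825-120916924, minus strand: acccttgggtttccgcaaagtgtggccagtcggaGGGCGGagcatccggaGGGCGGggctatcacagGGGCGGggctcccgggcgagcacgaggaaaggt
Bbc3, chr7:16309483-16309582, plus strand: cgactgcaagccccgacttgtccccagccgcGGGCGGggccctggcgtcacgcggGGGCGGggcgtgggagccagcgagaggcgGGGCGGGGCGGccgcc

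The table of starts held 36 of the 44 genes, with 56 windows, and few of these windows held the exact letters TATAAA. Near matches, such as TATAAG in the second Cdkn1a window, were not counted, so a lack of TATA boxes was not shown. TATAAA was in 1 of the 56 windows (1.79%), that of Eda2r, against 5.56% of all 32851 windows. GGGCGG was in 25 windows (44.6%, against 24.7% of all) and CCAAT in 18 (32.1%, against 18.9%). The p53 half-site was in 3 windows (5.36%, against 2.56%), those of Cdkn1a, Trp53 and Ddit4l. The windows of all genes were not limited to genes expressed in these libraries, while nearly all genes of the set were expressed. The shares are thus not of like sets, and an excess of a motif in the set was not tested. In the first Cdkn1a window the match GAACATGTCT was followed directly by 10 bases that differed from the half-site at 1 position. Of the 22 genes with a GC box, 4 rose, among them Btg2 and Bcl2l11, and 12 fell, among them Bid, Bbc3 and Sesn1. The other 6 were not called or not tested. Over all genes tested 30.6% rose and 32.9% fell. Calls were not counted for all genes with a GC box, so a link of the motif with a direction was not tested. A match is a description of the letters only, and the window leaves out more distant and intronic sites.

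Most of the set moved little, and the genes that moved went both ways. After a filter on low counts 42 of the 44 were tested, and Taf8-deleted cortex had 10 of them higher and 14 lower (edgeR's quasi-likelihood test, adjusted p below 0.05 over 16074 genes). That is 57.1% of the 42, against 63.5% of all genes, where 30.6% rose and 32.9% fell. Their median log2 fold change was -0.03, and it was 0.00 over all genes. For 24 of the 42, or 57.1%, all 4 deleted libraries lay on one side of all 4 intact ones, against 57.7% of all genes. Past 1.5-fold were 5 of the called genes, Ddb2, Bid, Bik, Ddit4l and Eda2r, against 20.6% of all genes tested that were both called and past 1.5-fold. When the test asked for a change beyond 1.5-fold, only Ddit4l and Eda2r were called, 4.76% of the 42 against 10.9% of all genes. Gdf15 and Fas did not pass the filter: Gdf15, a stress cytokine, had 1, 0, 3 and 1 counts in deleted and 4, 3, 4 and 4 in intact libraries, and Fas, a death receptor, had 6, 5, 0 and 3 counts in deleted and 3, 1, 0 and 4 in intact libraries.

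Divided by role, the called genes were spread unevenly, which is a description of these counts. Among p53, its regulators and its targets outside the BCL2 family, 5 of 24 rose and 5 fell, which is 41.7%, against 63.5% of all genes. Among the BCL2 family, apoptosome and survival genes, 5 of 18 rose and 9 fell, which is 77.8%. Within a group the embryos differed little: the median coefficient of variation over the 42 genes was 6.02% in deleted and 5.71% in intact libraries.

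**Figure D1:**
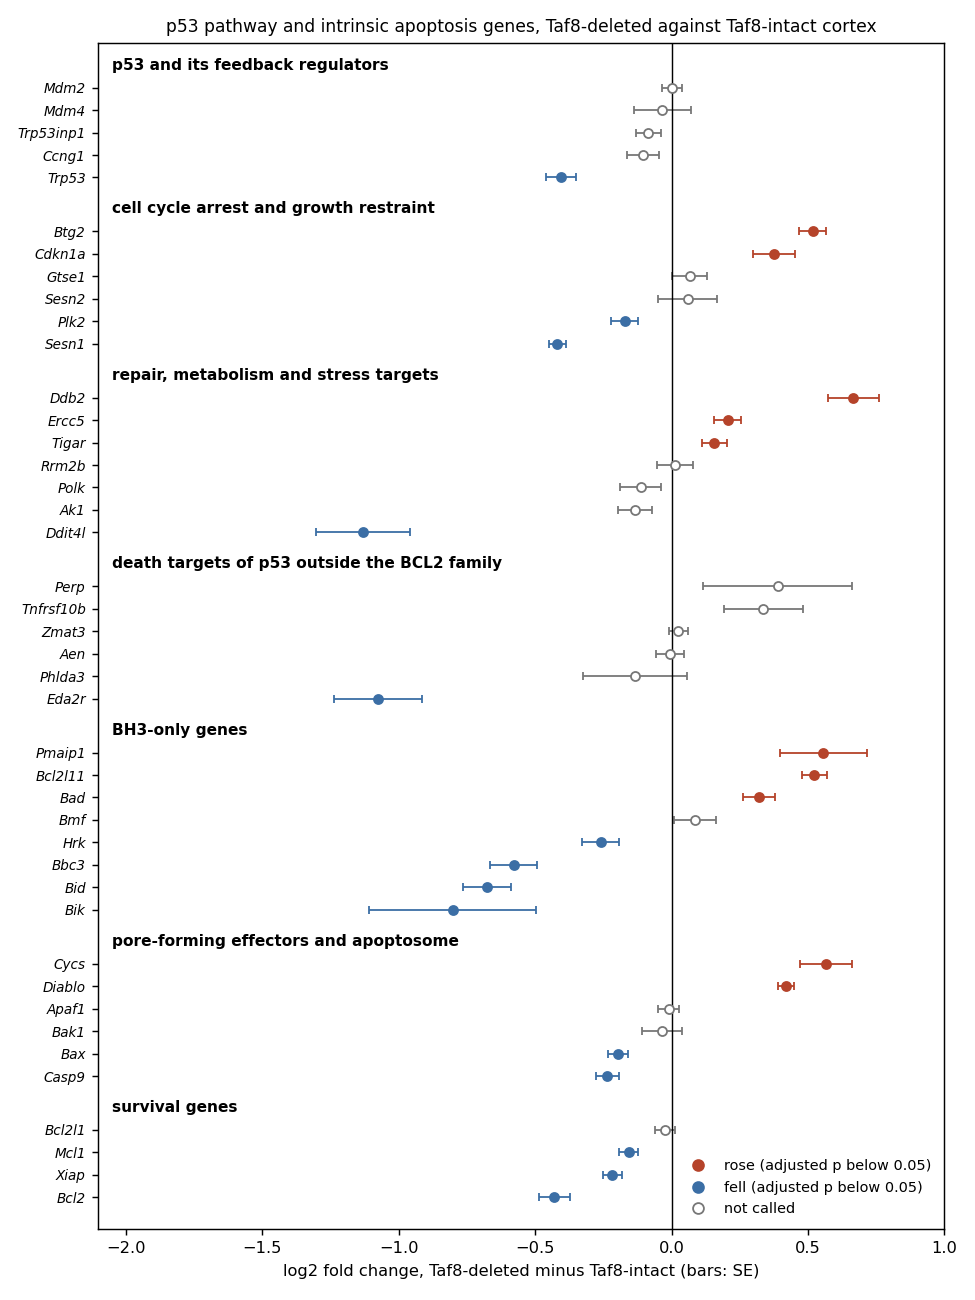
Log2 fold change, Taf8-deleted minus Taf8-intact, of the 42 tested genes in 7 role groups, with bars for the standard error (SE) and filled points for an adjusted p below 0.05. The points lie between -1.13 for Ddit4l and 0.67 for Ddb2, and most role groups hold points on both sides of 0.

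Trp53 itself fell, and Mdm2 and Mdm4 were not called. Trp53 (chr11:69580348-69591873) was at 34.5, 34.8, 36.4 and 36.3 CPM in deleted libraries, against 46.8, 51.5, 42.2 and 47.6 CPM in intact libraries. The highest deleted library was below the lowest intact one, and the log2 fold change was -0.41 ± 0.05 (SE, adjusted p = 3.79e-05). Processed pseudogenes of Trp53 exist in the mouse, and reads could be shared with them. Mdm2, the ubiquitin ligase that is both the main restraint and a target of p53, was at 94.8, 88.9, 88.3 and 95.2 CPM in deleted and 95.7, 90.3, 89.8 and 90.9 CPM in intact libraries. The groups overlapped almost completely, with a log2 fold change of 0.00 ± 0.04 (adjusted p = 0.962).

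Of the other regulators, Mdm4, which blocks the activation domain of p53, had the widest spread in deleted libraries, at 90.9, 70.3, 73.1 and 94.6 CPM, against 87.6, 86.0, 87.1 and 75.8 CPM in intact libraries (log2 fold change -0.03 ± 0.10, adjusted p = 0.795). The lower deleted values were those of replicates 2 and 3, with the most meningeal reads, and the lowest intact value that of replicate 4, with the most choroid plexus reads of its group; deleted replicate 1, with more choroid plexus reads still, was at 90.9 CPM. Whether these reads had a part in the spread was not tested. Ccng1, a cyclin that acts with a phosphatase on MDM2, averaged 31.3 ± 2.70 CPM in deleted and 33.6 ± 1.29 CPM in intact libraries (SD, n = 4 each; adjusted p = 0.144). It was called lower without deleted replicate 2 (log2 fold change -0.16, adjusted p = 0.0128). Trp53inp1, a nuclear partner of p53, averaged 145 ± 8.45 CPM in deleted and 154 ± 7.28 CPM in intact libraries (adjusted p = 0.134), and was called lower without deleted replicate 4 (log2 fold change -0.12, adjusted p = 0.0246). In this role group 1 of 5 genes was called, or 20% against 63.5% of all genes.

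The arrest genes split. Cdkn1a, which encodes the CDK inhibitor p21 and is the classical arrest target of p53 (chr17:29090979-29100722), was at 12.7, 14.2, 14.5 and 11.5 CPM in deleted libraries, against 10.02, 10.3, 10.05 and 10.5 CPM in intact libraries. All deleted values were above all intact ones, and it rose by 0.38 ± 0.08 on the log2 scale (adjusted p = 0.000991), a 1.30-fold difference. Its order over the deleted libraries was that of the meningeal markers given above. The endothelial markers had the same order, with sums of 204, 206, 228 and 182 CPM in deleted replicates 1 to 4, against 157 to 166 CPM in intact libraries. Without deleted replicates 2 and 3 the log2 fold change of Cdkn1a was 0.24 (adjusted p = 0.0223). The part of meningeal or endothelial cells in this rise was not tested further.

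Btg2, an antiproliferative gene known as a marker of neurogenic progenitors as well as a p53 target, rose further. It was at 137, 146, 150 and 143 CPM in deleted and 102, 110, 92.7 and 98.6 CPM in intact libraries, with no overlap (log2 fold change 0.52 ± 0.05, adjusted p = 2.19e-06). Sesn1, a sestrin that restrains mTORC1, went the other way, at 55.6, 53.3, 56.8 and 55.7 CPM in deleted and 73.5, 74.3, 74.8 and 73.5 CPM in intact libraries. The groups were far apart relative to their spread (log2 fold change -0.42 ± 0.03, adjusted p = 2.76e-07).

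Plk2, a polo-like kinase, averaged 102 ± 2.94 CPM in deleted and 115 ± 8.46 CPM in intact libraries (SD, n = 4 each) and fell by 0.17 ± 0.05 on the log2 scale (adjusted p = 0.0083). That call was lost with library totals only (log2 fold change -0.11, adjusted p = 0.0572) and with upper-quartile factors (-0.11, adjusted p = 0.0523). It was also lost without deleted replicates 2 and 3, in a fit with fewer deleted libraries (log2 fold change -0.15, adjusted p = 0.0796). Gtse1, a G2 and S phase protein that moves p53 out of the nucleus, and Sesn2, the second sestrin, were not called, with log2 fold changes of 0.07 ± 0.06 and 0.06 ± 0.11. In all, 2 of 6 arrest genes rose and 2 fell, or 66.7% called against 63.5% of all genes.

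**Figure D2:**
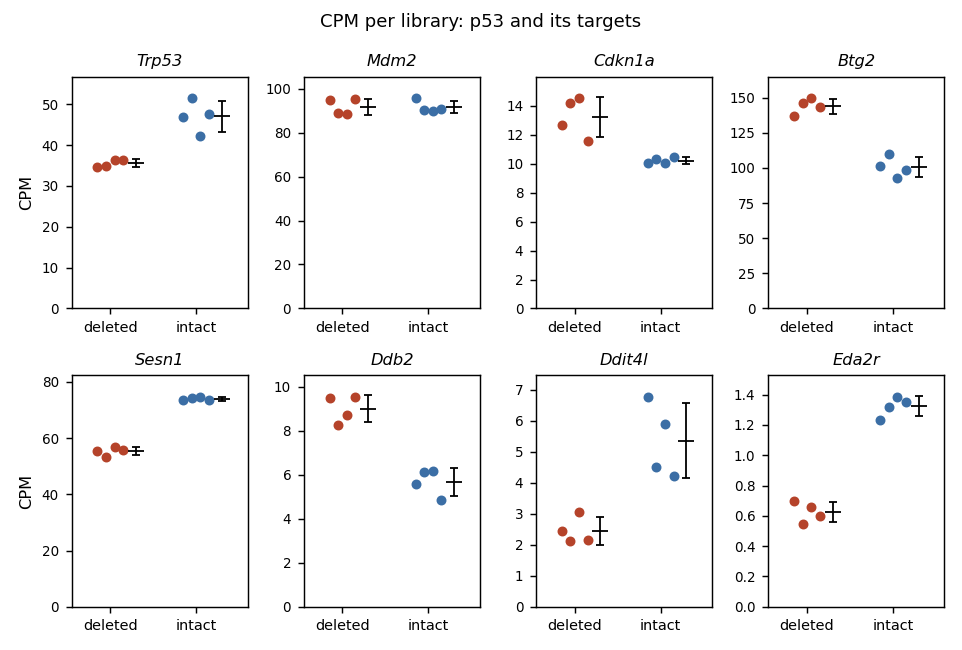
CPM in each library for 8 genes of the p53 group, Taf8-deleted left and Taf8-intact right, with the mean ± SD (n = 4 each) as a bar beside the points and axes from 0. Trp53, Sesn1, Ddit4l and Eda2r were lower in every deleted library, Cdkn1a, Btg2 and Ddb2 higher, and Mdm2 overlapped.

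Of the 7 tested genes for repair, metabolism and stress, 3 rose and 1 fell, or 57.1% called against 63.5% of all genes. Ddb2, which recognises UV lesions for nucleotide excision repair (chr2:91211545-91237132), was at 9.49, 8.26, 8.72 and 9.55 CPM in deleted libraries, against 5.56, 6.13, 6.18 and 4.84 CPM in intact libraries. This was the largest rise of the set, 0.67 ± 0.09 on the log2 scale (adjusted p = 5.21e-05), with no overlap. In the GENCODE M21 annotation 23.8% of its exon bases overlap Acp2 on the other strand, and Acp2 had a log2 fold change of -0.06. Ercc5, the repair endonuclease XPG, averaged 53.5 ± 3.66 CPM in deleted and 46.3 ± 1.53 CPM in intact libraries and rose by 0.21 ± 0.05 (adjusted p = 0.0030).

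Tigar, which lowers glycolysis, averaged 37.9 ± 1.06 CPM in deleted and 34.0 ± 1.81 CPM in intact libraries and rose by 0.16 ± 0.05 (adjusted p = 0.0093). Without deleted replicates 2 and 3 its log2 fold change was nearly the same, 0.15. With fewer deleted libraries in that fit, the call was lost (adjusted p = 0.0520). Ddit4l, an mTOR inhibitor gene, had the largest fall, at 2.43, 2.13, 3.07 and 2.14 CPM in deleted and 6.79, 4.52, 5.91 and 4.22 CPM in intact libraries. It differed 2.19-fold, with a log2 fold change of -1.13 ± 0.17 (adjusted p = 0.00012), and the intact libraries varied more than the deleted ones. Rrm2b, the p53-induced ribonucleotide reductase subunit, Polk, a translesion polymerase, and Ak1, an adenylate kinase, were not called, with log2 fold changes of 0.01 ± 0.07, -0.11 ± 0.07 and -0.13 ± 0.06. Ak1 was called lower without intact replicate 2 (log2 fold change -0.17, adjusted p = 0.0295).

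Among the p53 death targets outside the BCL2 family, Eda2r alone of 6 tested genes was called, or 16.7% against 63.5% of all genes. Eda2r, a receptor of the TNF family, was at 0.701, 0.545, 0.655 and 0.598 CPM in deleted libraries, against 1.23, 1.32, 1.39 and 1.35 CPM in intact libraries. It thus fell 2.11-fold without overlap (log2 fold change -1.08 ± 0.16, adjusted p = 9.51e-05) at a low level, with 24 to 32 counts in a deleted and 53 to 57 in an intact library. Zmat3, an RNA-binding protein gene, and Aen, an apoptosis-enhancing nuclease gene, were well measured, at 85.7 ± 3.76 and 32.2 ± 1.56 CPM in deleted and 84.2 ± 1.62 and 32.3 ± 1.604 CPM in intact libraries. Their log2 fold changes were 0.03 ± 0.04 and -0.01 ± 0.05, and neither passed the test (adjusted p = 0.554 and 0.927). Zmat3 was called higher with library totals only (log2 fold change 0.09, adjusted p = 0.0498).

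Tnfrsf10b, the TRAIL death receptor gene, was at 1.99, 2.29, 2.03 and 1.99 CPM in deleted and 1.84, 1.74, 1.29 and 1.71 CPM in intact libraries. The groups did not overlap, yet the test missed the threshold (log2 fold change 0.34 ± 0.14, adjusted p = 0.0585); with library totals only, upper-quartile factors, the stricter filter or limma voom the adjusted p was 0.0313 to 0.0483. Perp, a desmosomal protein gene with a role in death, and Phlda3, an inhibitor of AKT, were not called, with log2 fold changes of 0.39 ± 0.27 and -0.13 ± 0.19 at levels of 0.651 to 2.96 CPM.

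The BH3-only genes changed in both directions, with 3 of 8 higher and 4 lower, or 87.5% called against 63.5% of all genes. One of the 4 falls, that of Bik, did not hold under several alternatives given below, and no difference between role groups was tested. Bcl2l11, which encodes BIM (chr2:128126038-128162547), was at 34.8, 32.7, 33.7 and 32.0 CPM in deleted libraries, against 23.9, 22.5, 22.7 and 23.6 CPM in intact libraries. It rose by 0.52 ± 0.04 on the log2 scale (adjusted p = 7.18e-07), or 1.44-fold. Pmaip1, which encodes NOXA, a p53 target that opposes MCL1, was at 2.65, 4.04, 2.80 and 3.34 CPM in deleted and 2.37, 2.45, 2.07 and 1.83 CPM in intact libraries. The deleted libraries were all higher but spread widely (log2 fold change 0.56 ± 0.16, adjusted p = 0.0085), and without deleted replicates 2 and 3 the call was lost (log2 fold change 0.45, adjusted p = 0.0506). Bad, whose product is controlled by growth factor signalling, averaged 26.9 ± 1.76 CPM in deleted and 21.6 ± 1.23 CPM in intact libraries and rose by 0.32 ± 0.06 (adjusted p = 0.000483). Of its exon bases 20.5% overlap Gpr137 on the other strand, which had a log2 fold change of 0.10.

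Bbc3, which encodes PUMA, the main BH3-only target of p53 in neurons (chr7:16308398-16318334), moved the other way. It was at 5.61, 7.17, 6.28 and 6.68 CPM in deleted libraries, against 8.88, 9.64, 10.2 and 9.68 CPM in intact libraries, with a log2 fold change of -0.58 ± 0.09 (adjusted p = 8.94e-05). Bid, which links death receptors to the mitochondrion, was at 6.29, 7.49, 7.18 and 8.08 CPM in deleted and 11.5, 11.1, 13.0 and 10.8 CPM in intact libraries. For both genes every deleted library was below every intact one, and Bid fell by 0.68 ± 0.09 (adjusted p = 3.18e-05). The exons of Bid overlap those of Bcl2l13 on the other strand over 17.7% of their bases, and Bcl2l13 had a log2 fold change of 0.21.

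Hrk, a BH3-only gene known from neurons, averaged 11.6 ± 0.936 CPM in deleted and 13.9 ± 0.522 CPM in intact libraries and fell by 0.26 ± 0.07 (adjusted p = 0.0053). Without deleted replicate 1 and intact replicate 4 its log2 fold change was -0.18 (adjusted p = 0.0592). Bik, the least abundant of the 8, had 7, 14, 12 and 7 counts in deleted and 17, 23, 12 and 16 in intact libraries. The groups overlapped, and its call (log2 fold change -0.80 ± 0.31, adjusted p = 0.0374) was lost in DESeq2 (adjusted p = 0.119) and when any of 5 single libraries was left out (adjusted p up to 0.129). Bmf, which responds to loss of attachment, was not called (log2 fold change 0.09 ± 0.08, adjusted p = 0.340).

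The ratio of the BIM to the PUMA gene restates these 2 changes and is given as a description. On counts per kilobase, Bcl2l11 was 2.44, 1.79, 2.11 and 1.88 times as abundant as Bbc3 in deleted libraries, against 1.06, 0.916, 0.871 and 0.959 times in intact libraries. The summed level of the 8 BH3-only genes was 108 to 122 CPM in deleted and 104 to 108 CPM in intact libraries, so the groups nearly touched.

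The genes of the membrane pore and the apoptosome also split. Bax, the p53-inducible pore former (chr7:45461695-45466903), was at 63.1, 62.5, 63.0 and 61.1 CPM in deleted and 71.2, 67.7, 73.2 and 74.1 CPM in intact libraries. It fell by a small but well separated amount, with a log2 fold change of -0.20 ± 0.04 (adjusted p = 0.000387). Of its exon bases 12.2% overlap Gm45808 on the same strand, for which there was no log2 fold change. Bak1, the other pore former, and Apaf1, the apoptosome scaffold and also a p53 target, were not called, with log2 fold changes of -0.04 ± 0.07 and -0.01 ± 0.04. The exons of Bak1 overlap Ggnbp1 on the other strand over 25.5% of their bases, and Ggnbp1 had a log2 fold change of 0.45. Casp9, the caspase of the apoptosome, was at 34.0, 35.3, 36.4 and 38.0 CPM in deleted and 41.7, 42.9, 42.7 and 41.8 CPM in intact libraries, and fell by 0.24 ± 0.04 (adjusted p = 0.000322).

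Diablo, whose product leaves the mitochondrion and blocks XIAP (chr5:123511330-123524164), had the smallest adjusted p of the set. It was at 71.3, 70.6, 69.9 and 69.2 CPM in deleted libraries, against 52.2, 52.8, 52.0 and 53.3 CPM in intact libraries, and rose by 0.42 ± 0.03 (adjusted p = 1.77e-07). Its exons overlap other genes over 40.9% of their bases, among them B3gnt4 on the other strand, which had a log2 fold change of 0.38, so part of these reads may not be its own. Cycs, encoding somatic cytochrome c, was at 4.53, 5.01, 4.72 and 5.09 CPM in deleted and 3.23, 3.06, 3.53 and 3.25 CPM in intact libraries (log2 fold change 0.57 ± 0.09, adjusted p = 0.000208). Cycs has many processed pseudogenes that can share its reads, and its level is uncertain for that reason.

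Of the role groups with more than 1 called gene, the survival genes were the only one in which all of these moved the same way, with 3 of 4 lower and 0 higher, where 32.9% of all genes fell; with 4 genes this describes these genes only. Bcl2 (chr1:106538176-106714290) was at 34.5, 36.7, 33.3 and 31.7 CPM in deleted libraries, against 47.3, 42.9, 49.2 and 44.2 CPM in intact libraries. The groups did not overlap, and it fell by 0.43 ± 0.06 on the log2 scale (adjusted p = 2.74e-05). Xiap, the X-linked caspase inhibitor, averaged 96.5 ± 2.74 CPM in deleted and 112 ± 2.65 CPM in intact libraries and fell by 0.22 ± 0.03 (adjusted p = 0.000121). Mcl1, which keeps cortical progenitors alive, averaged 131 ± 4.15 CPM in deleted and 146 ± 1.97 CPM in intact libraries and fell by 0.16 ± 0.03 (adjusted p = 0.0012).

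Bcl2l1, which encodes BCL-XL and protects young neurons, was at 123, 131, 132 and 128 CPM in deleted and 125, 130, 133 and 134 CPM in intact libraries. It was not called (log2 fold change -0.02 ± 0.04, adjusted p = 0.574). Summed over the 4 genes, survival transcripts stood at 381, 394, 389 and 394 CPM in deleted and 428, 431, 442 and 436 CPM in intact libraries, with no overlap. Several markers of cortical neurons were also lower: Dcx averaged 1294 ± 104 CPM in deleted and 2107 ± 111 CPM in intact libraries, and Neurod6 191 ± 18.4 CPM in deleted and 482 ± 25.5 CPM in intact libraries. The progenitor marker Pax6 was higher, at 162 ± 12.6 CPM in deleted and 116 ± 10.1 CPM in intact libraries, and was the only one of the 9 cortical markers to rise. Emx1 and Eomes fell, with log2 fold changes of -0.30 and -0.28, and Emx2 and the neuronal marker Tubb3 were not called. The part of these shifts in the survival genes was not tested. Because Bax and Bcl2 both fell, their ratio moved less than Bcl2: on counts per kilobase Bax was 16.3, 15.2, 16.8 and 17.2 times Bcl2 in deleted libraries, against 13.4, 14.1, 13.3 and 14.96 times in intact libraries.

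**Figure D3:**
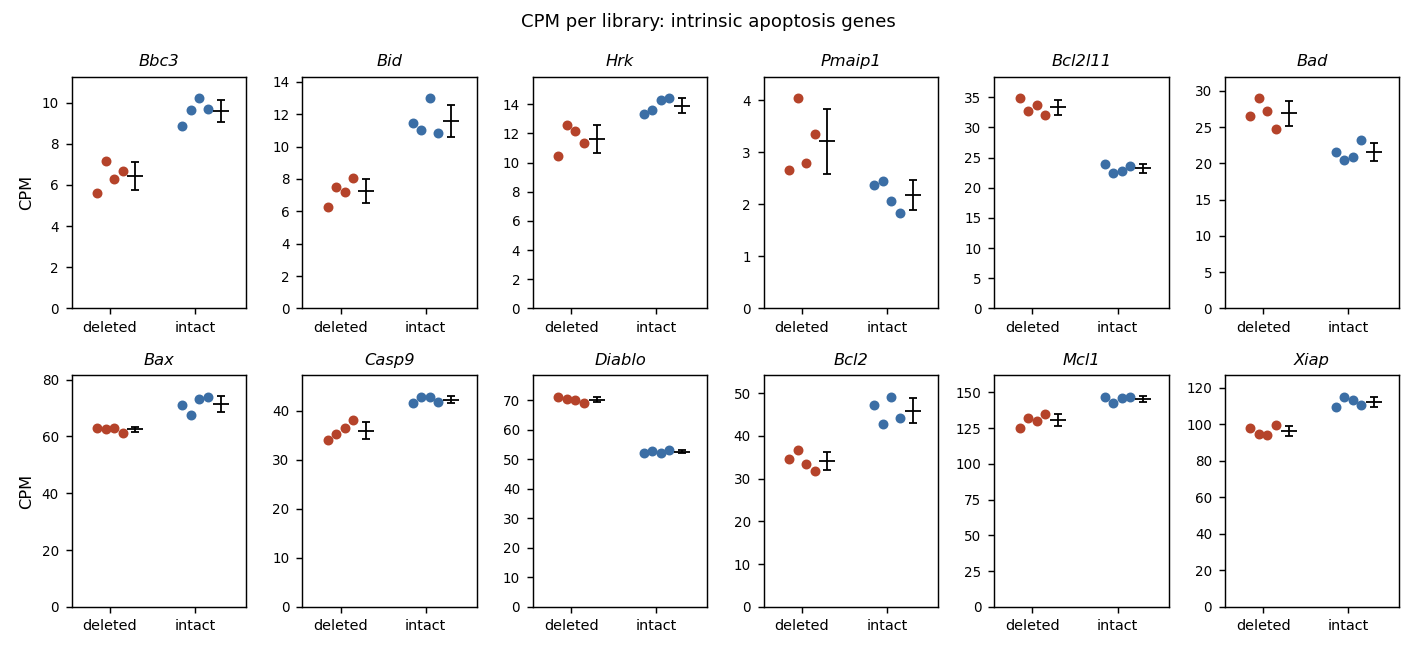
CPM in each library for 12 intrinsic apoptosis genes, Taf8-deleted left and Taf8-intact right, with the mean ± SD (n = 4 each) beside the points and axes from 0. Bbc3, Bid, Hrk, Bax, Casp9, Bcl2, Mcl1 and Xiap were lower in every deleted library, and Pmaip1, Bcl2l11, Bad and Diablo were higher in every deleted library.

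Per kilobase of the deposited gene length, the set spanned a wide range of levels whose order was largely kept. Bax was the most abundant, at 71.9 CPM per kilobase in deleted and 82.3 in intact libraries, followed by Bcl2l1 at 54.2 in deleted and 55.1 in intact libraries. The next was Btg2 in deleted libraries, at 46.7 CPM per kilobase against 32.7 in intact ones, while in intact libraries Mcl1 came next, at 37.4 in deleted and 41.7 in intact libraries. Among the BH3-only genes Bad had the highest level per kilobase, 18.5 in deleted and 14.8 in intact libraries. Bcl2l11 came next in deleted libraries with 6.62, against 4.60 in intact libraries, where Bid with 6.13 stood in that place, at 3.84 in deleted libraries. Bbc3 was at 3.26 CPM per kilobase in deleted and 4.86 in intact libraries, and Pmaip1 at 1.21 in deleted and 0.821 in intact libraries. Eda2r was the least abundant tested gene, at 0.107 in deleted and 0.227 in intact libraries.

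**Figure D4:**
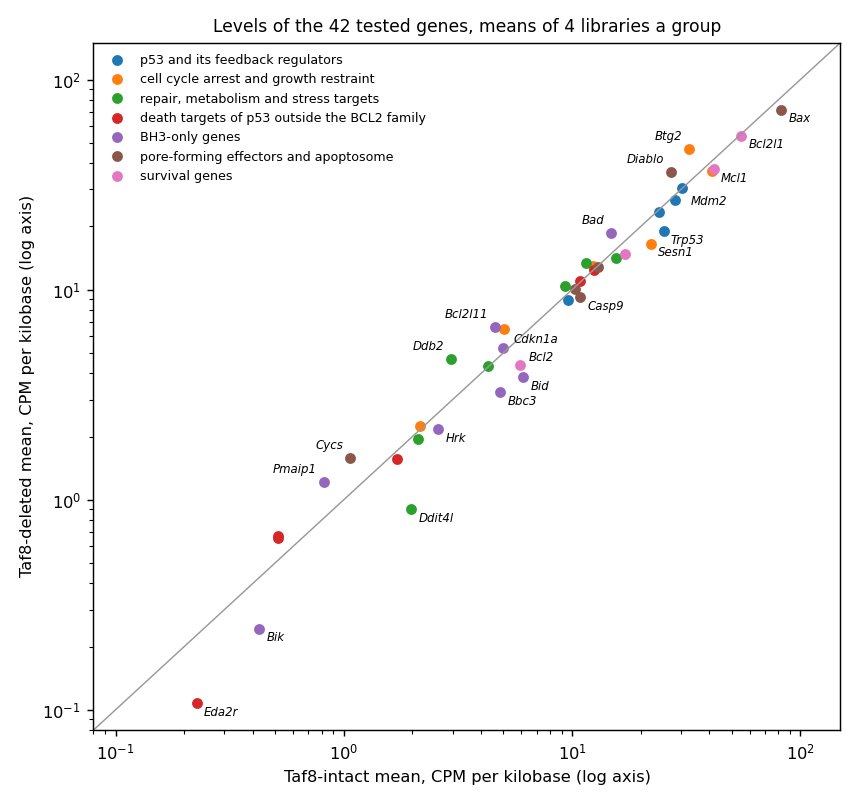
Mean level of the 42 tested genes in CPM per kilobase of gene length, Taf8-deleted on the vertical and Taf8-intact on the horizontal axis, both logarithmic, coloured by role group, with a line of equal levels and names for selected genes. Levels ran from about those of Eda2r (0.107 deleted, 0.227 intact) to those of Bax (71.9 deleted, 82.3 intact), and the points stayed near the line.

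Genes around the set were counted in 4 further lists of 74 genes, of which 70 passed the filter, and 24 rose and 24 fell, or 68.6% against 63.5% of all genes. With upper-quartile factors or library totals these were 32 and 21. Among 24 other p53-activated genes, 10 rose (41.7%) and 7 fell (29.2%), where 30.6% of all genes rose and 32.9% fell. That is 70.8% called, against 63.5% of all genes. Plk3, a stress-responsive polo-like kinase, averaged 35.2 ± 1.59 CPM in deleted and 14.5 ± 1.20 CPM in intact libraries (SD, n = 4 each) and rose by 1.28 ± 0.06 on the log2 scale (adjusted p = 9.41e-09). Fdxr, ferredoxin reductase, and Zfp365, which acts on DNA breaks, rose by 0.65 ± 0.05 and 0.80 ± 0.11. The largest rises of this list were at low levels. Sfn rose by 2.69 ± 0.40, from 0.167 CPM in intact to 1.08 CPM in deleted libraries. Trp53cor1 rose by 1.65 ± 0.42, from 0.171 CPM in intact to 0.543 CPM in deleted libraries. Rprm, a G2 arrest gene that is also a marker of deep-layer cortical neurons, averaged 73.4 ± 3.37 CPM in deleted and 136 ± 5.56 CPM in intact libraries and fell by 0.89 ± 0.04 (adjusted p = 7.68e-09). Pidd1, the scaffold that activates caspase-2, and Trp53i11 fell by 0.56 ± 0.06 and 0.49 ± 0.03.

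Upstream of p53, 6 of 18 tested genes rose and 4 fell, or 55.6% against 63.5% of all genes. Prkdc, the DNA-dependent protein kinase, averaged 91.7 ± 11.3 CPM in deleted and 51.2 ± 2.70 CPM in intact libraries and rose by 0.84 ± 0.08 (adjusted p = 1.46e-05), and Rchy1, another ubiquitin ligase for p53, and Trp53bp2, which directs p53 to death genes, rose by 0.26 ± 0.04 and 0.24 ± 0.04. Kat5, the acetyltransferase that modifies p53 and ATM, fell by 0.59 ± 0.04, and the kinase genes Hipk2 and Chek1 fell by 0.26 ± 0.06 and 0.35 ± 0.08.

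Of 20 other intrinsic apoptosis genes, 7 rose (35%), 11 fell (55%) and 2 were not called, against 30.6% higher and 32.9% lower among all genes. That is 90% called, against 63.5% of all genes. Endog, a mitochondrial nuclease, averaged 6.73 ± 1.03 CPM in deleted and 2.18 ± 0.154 CPM in intact libraries and rose by 1.63 ± 0.12 (adjusted p = 3.15e-07). Htra2, a mitochondrial protease that can bind XIAP like Diablo, and Dffa, the chaperone and inhibitor of the apoptotic nuclease, rose by 0.66 ± 0.05 and 0.53 ± 0.05. Bok, a BCL2 family member related to Bax, fell by 0.67 ± 0.04, Casp2 by 0.29 ± 0.04 and the channel gene Vdac1 by 0.24 ± 0.03. In the extrinsic list 1 of 8 tested genes rose, the adaptor gene Fadd by 0.35 ± 0.07, and 2 fell, Tnfrsf21 by 0.23 ± 0.05 and Cradd by 0.35 ± 0.08. That is 37.5% called, against 63.5% of all genes.

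**Figure D5:**
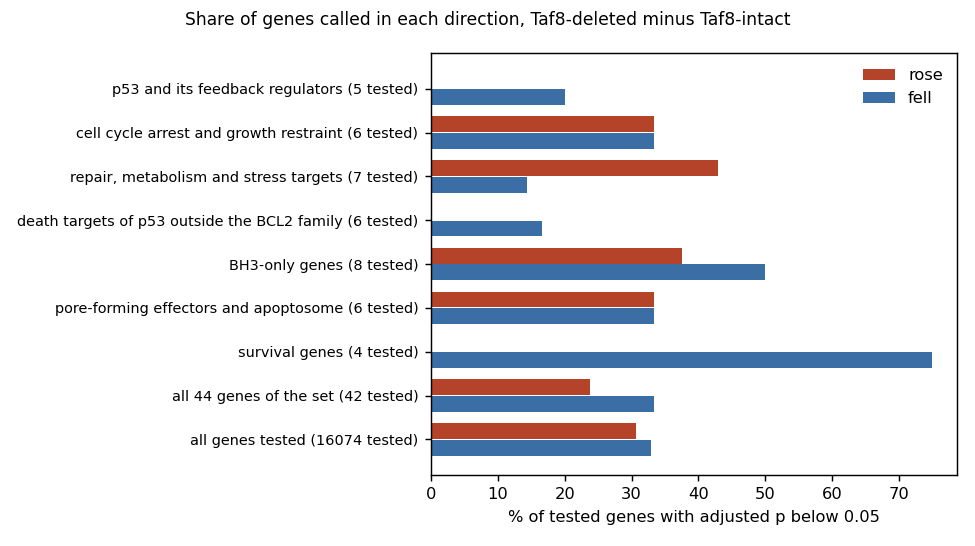
Share of tested genes that rose or fell (adjusted p below 0.05) in each of the 7 role groups, in all 44 genes of the set and in all 16074 genes tested, as horizontal bars from 0. The set as a whole had 23.8% higher and 33.3% lower, against 30.6% and 32.9% of all genes, and each role group holds 4 to 8 tested genes.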

How the data were processed

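RNA from the cortex of 8 embryos was measured. The authors deposited raw counts per gene, with a gene length in bases, and per the submitters' processing notes bcl2fastq 1.8.4, Subread 1.5.0, featureCounts and build mm10 were used; for the annotation, the rule on multi-mapping reads and any filter, the sources used here give nothing. The single-library files were identical to the columns of the matrix in all 8 cases. Symbols came from RefSeq (GRCm38.p6) and matched 25275 of 27179 identifiers; the other 1904 held 0.490% to 1.64% of a library's counts and stayed in the totals and tests. Within groups no pair of libraries agreed within sampling noise (chi-square per gene 4.22 to 14.6). Each label states a separate embryo; nothing states litters.

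Counts were tested with edgeR 4.0.16 in R 4.3.3: filterByExpr, TMM factors, robust quasi-likelihood test without covariates, Benjamini-Hochberg adjustment over 16074 genes, threshold 0.05. The SE of a log2 fold change was derived from the F statistic. CPM use TMM-scaled library sizes. The pipeline was tested on simulated data. A count of 0 allows up to 3 counts, or 0.0670 to 0.0758 CPM, counting error only, since reads are not independent molecules. Alternatives were other size factors and filters, DESeq2 1.42.0, limma 3.58.1 (voom), a 1.5-fold test, a replicate block and leaving out libraries; leaving out pairs of libraries with other tissue was chosen after seeing the data.

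The members and lists were chosen with earlier results of these data known. Values in every library were given for Trp53, Mdm2, Cdkn1a, for called genes with a log2 change of at least 0.4, and for the smallest p in each direction and role group; Bax, Mdm4, Tnfrsf10b, Bcl2l1, Gdf15 and Fas were added after their values were seen. From each further list up to 3 genes in each direction with the smallest p are named, and Sfn and Trp53cor1 were added after their values were seen. Promoters were planned for the largest changes in 3 role groups; the RefSeq table has no entry for Pmaip1 and Bik, first among the BH3-only genes, and those of Cdkn1a, Bcl2l11, Bid and Bbc3 were added after their values were seen. The libraries were unstranded, per the labels' protocols, so the reads of a gene and of its antisense partner cannot be told apart. Of the cortical markers, 1 is not reported here and was left out of their sum.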

Additional observations from a re-analysis of the deposited data

Results flagged for a closer look

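Dixon's test on the 4 libraries of each group was applied to 84 groups of values of the set, and by chance about 1 group in 20 is picked out. It picked out 3 values. Tnfrsf10b was at 2.29 CPM in deleted replicate 2, against 1.99 to 2.03 CPM in the other deleted libraries. Mdm4 was at 75.8 CPM in intact replicate 4, against 86.0 to 87.6 CPM in the other intact libraries, and this was the intact library with the most choroid plexus reads. Gtse1 was at 30.1 CPM in intact replicate 3, against 35.3 to 36.1 CPM in the other intact libraries.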

How the results depend on the processing

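The counts of genes in the set that rose and fell (10 and 14) were 8 to 12 and 12 to 15 under all alternatives except the test against a 1.5-fold change, which left 0 and 2, with 4 and 1 in the further lists (24 and 24) and 932 and 816 of all genes. Leaving out 1 library gave 10 in each case and 13 to 15. With the replicate number as a block, no gene of the set changed its call (10 and 14). Same-numbered libraries did not deviate together (correlations -0.46 to 0.01), so the numbers were not taken as pairs, and the block gave 4605 rises and 5060 falls over all genes. Library totals gave 5894 and 4416 over all genes and 12 and 12 in the set, with a median shift of 0.06 (log2).

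Genes of the set that changed sign were not called in either setting. Their log2 fold changes with library totals only became 0.028 for Mdm4, 0.056 for Aen, 0.026 for Bak1, 0.052 for Apaf1 and 0.038 for Bcl2l1. With upper-quartile factors they became 0.024 for Mdm4, 0.052 for Aen, 0.022 for Bak1, 0.048 for Apaf1 and 0.033 for Bcl2l1. With median-ratio factors they became 0.0045 for Aen and 0.00069 for Apaf1, and keeping only genes above 1 CPM in 4 libraries made them 0.022 for Aen, 0.018 for Apaf1 and 0.0033 for Bcl2l1. Without deleted replicate 1 and intact replicate 4 they became -0.0034 for Mdm2, 0.015 for Aen, 0.045 for Bak1 and 0.023 for Bcl2l1. Without deleted replicates 2 and 3 they became 0.14 for Mdm4, -0.0071 for Gtse1, -0.092 for Sesn2, -0.011 for Rrm2b, -0.038 for Bmf and 0.015 for Apaf1. Leaving out 1 library, the ranges were -0.0077 to 0.030 for Mdm2, -0.10 to 0.044 for Mdm4, -0.0057 to 0.15 for Sesn2, -0.024 to 0.076 for Rrm2b, -0.27 to 0.028 for Phlda3, -0.020 to 0.028 for Aen, -0.085 to 0.018 for Bak1, -0.030 to 0.023 for Apaf1 and -0.048 to 0.0088 for Bcl2l1. The cause was not tested.

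Depth limits Eda2r, Bik, Perp, Gdf15 and Fas most. The set holds mRNA levels of whole tissue only, and animal number and genotype cannot be told apart.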
